A study of Panax notoginseng with 2 samples.

Results

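Stranded intergenic loci are stretches of the Panax notoginseng genome where RNA fragments were assembled into a transcript with a direction, outside the genes of the reference annotation. They are candidates for spliced genes that this annotation lacks. A locus was taken where the deposited transcript table gave it the Cufflinks class code u (intergenic), its strand was + or −, and its length from first to last base was at least 500. The rule found 2854 of 147111 loci, 1.94%, of which 1397 lay on the plus strand and 1457 on the minus strand. Among all 8565 intergenic loci, 5592 carried no strand, and 119 of the 2973 with a strand were shorter than 500 bases. Class and strand come from a transcript assembly, so they are not independent of the levels described here.

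The RNA came from roots of field-grown P. notoginseng, a medicinal relative of ginseng. Plants without treatment gave 1 library (control), and plants exposed to 5 µM of the toxic heavy metal cadmium gave the other. Both groups share species, tissue and growth site, and the labels give no plant age, variety, number of pooled plants, exposure time or further replicate. As each group has 1 library, no difference could be checked on replicates or tested, and cadmium cannot be told apart from any other difference between these libraries. In such bulk samples fewer cells of a type and less RNA per cell cannot be told apart.

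A plant genome annotation made by gene prediction misses some genes, among them long non-coding RNAs, genes with short open reading frames and recent duplicates. Transcript assembly from RNA-seq reads can find them: spliced reads mark introns, and the bases at the intron ends show the strand, while an unspliced transcript from a library without strand marking shows none. An assembled intergenic stretch can also be an untranslated end of a neighbouring gene that the annotation cut short, so its distance and direction relative to that gene matter. The files give these loci identifiers and positions, with no gene name or function, and coding potential was not measured here.

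Every stranded intergenic locus whose exons could be read was spliced. Exon positions covered the first 1693 loci of the assembly and included 68 stranded intergenic ones, all on short contigs and 67 of them on a contig with no reference locus. In 47 of the 68 the longest exon chain had 2 exons, in 16 it had 3, and in 5 it had 4 or more, with at most 5. None of the 192 unstranded intergenic loci of 500 bases or more in the same file had an intron. Among loci listed with the structure of a reference gene, 242 of 528 of at least 500 bases (45.8%) were spliced. Strand and splicing therefore went together in all 260 intergenic loci of this length that could be checked. If the libraries carried no strand marking, the strand was itself read from intron ends. The link then follows from how loci got their strand, and it adds no separate support for these candidates.

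The introns of these 68 loci were mostly short. Their 109 distinct introns had a median of 178 bases (quartiles 94 to 377) and ran from 71 to 2797 bases, with 58 under 200 and 11 of 1000 or more. In the file's reference-structure loci of at least 500 bases the median intron was 113 bases, and in its 16 loci with a new splice form it was 137 bases. The transcripts were short too: the median of all 96, of which 85 were spliced, was 591 bases, from 147 to 2982. One transcript was assembled in 48 of the 68 loci, and 20 had 2 to 4. A simple case was contig C4744271 from 31 to 685, plus strand, with 2 exons around an intron of 107 bases and a transcript of 548 bases. The richest structure among the well expressed loci was on contig C4751851 from 25 to 1056, minus strand, with 2 transcripts, up to 4 exons and introns of 76 to 305 bases.

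**Figure D1:**
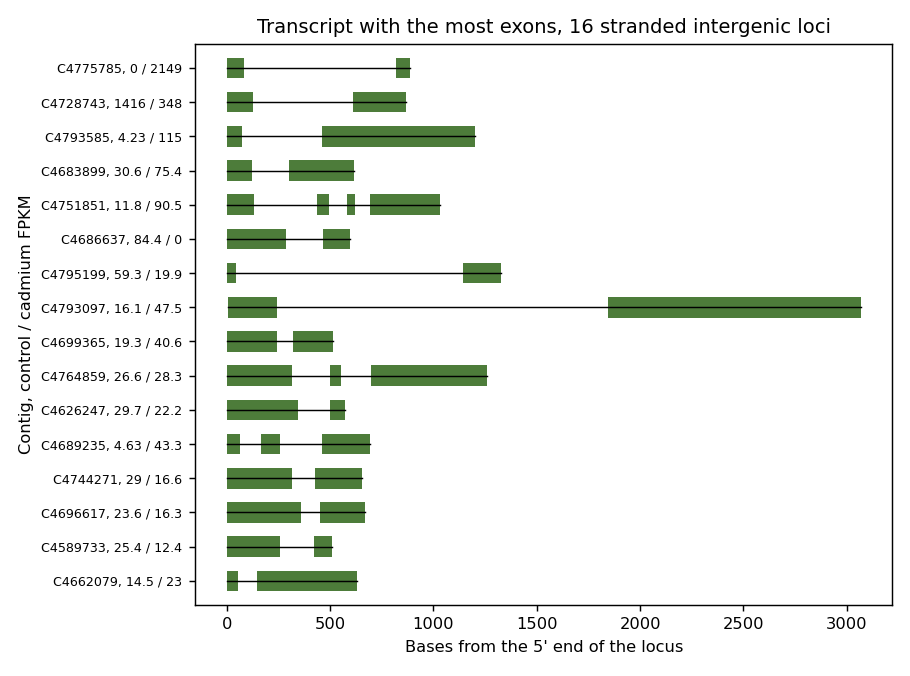
Exon structure of the 16 stranded intergenic loci with the highest mean FPKM in the exon file, drawn for the transcript with the most exons, from the 5′ end of the locus in bases. Boxes are exons, lines are introns, and the axis labels give the contig with control and cadmium FPKM. The intron of 2797 bases belongs to another transcript of the locus on contig C4793097, whose drawn transcript has 2 exons.

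For the other members only the first listed exon and the span are given, and these also differ from unstranded loci. The first exon had a median of 350.5 bases and covered a median of 14.2% of the span. It filled the whole span in 78 of the 2263 members with a span of their own (3.45%), against 2642 of 2642 such unstranded intergenic loci (100%). By the running transcript numbers, 1418 members (49.7%) had 2 or more transcripts, with at most 16, against 2.35% of unstranded loci. This numbering differed from the exon file in 9 of the 68 members. The 39 members whose first exon filled the span and that had 1 transcript by the numbering showed no sign of splicing, and their strand has no source in the files.

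The span of a stranded intergenic locus had a median of 2480 bases (quartiles 1400 to 4780) and ran from 500 to 112892 bases. Reference-structure loci of 500 bases or more were shorter, with a median of 1200 bases, and loci with a new splice form were longer, with 6247 bases. Spans in the table are those of whole groups of overlapping loci: 591 members shared theirs with another locus, so the span is not their own length. For the 2263 members with a span of their own the median was 2047 bases and the longest reached 44617. Another member lay in the same span for 239 loci, on the opposite strand for 211 of them. A reference locus, here any locus of class = (reference structure), j (new splice form) or o (other exon overlap), lay in the span of 258. The library's strand marking is not given in the sources used here, so reads of such overlapping loci cannot be told apart with certainty.

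Stranded intergenic loci were expressed at low to moderate levels, above unstranded intergenic loci and below known genes with new splice forms. FPKM (fragments per kilobase of transcript, scaled to the library) had a median of 2.84 in control and 4.43 in cadmium. Unstranded intergenic loci of 500 bases or more had medians of 0.341 and 0.762 FPKM, and new splice form loci 10.7 and 11.6. Reference-structure loci of that length stood below the members, with medians of 0 in both libraries. Only 9.62% of them reached 1 FPKM in control and 6.43% in cadmium. At least 1 FPKM was reached by 1899 members in control and 2296 in cadmium. A level of 10 FPKM was reached by 662 and 831 members, and 100 FPKM by 54 and 63. The highest values, at different loci, were 6564 FPKM (control) and 4393 FPKM (cadmium).

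More members were listed at 0 in the control library than in the cadmium library, although the control was the deeper of the pair. The numbers were 340 for control (11.9%) and 162 for cadmium (5.68%), and 76 of these members were at 0 in both. Unstranded intergenic loci of 500 bases or more had the same order, with 26.5% at 0 in control and 13.6% in cadmium. Over all loci of 500 bases or more the order was reversed, at 63.3% and 68.2%. The fitted depth was 19.8 control and 11.9 cadmium fragments per kilobase and FPKM, a ratio of 1.67. Any scaling between libraries made before deposit is part of these numbers. A listed 0 may mean no fragments or an estimate that failed, and 31 members in each library had values above 0 but under 0.001 FPKM. Above 1 FPKM in cadmium and below it in control were 558 members, and 161 were the other way round. In cadmium 80.4% of members reached 1 FPKM and in control 66.5%. Among unstranded intergenic loci of 500 bases or more the shares were 42.8% and 34.2%, and among all loci of that length 24.8% and 26.2%.

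Set against untreated roots, as the study's design does, stranded intergenic loci leaned towards the cadmium library. A locus was called higher or lower when log2((cadmium FPKM + 1)/(control FPKM + 1)) was at least 1 or at most −1 and 1 library reached 1 FPKM. This scale gives weakly expressed loci smaller ratios than their FPKM alone would. Of the 2457 members that reached 1 FPKM, 875 (35.6%) were higher in cadmium and 301 (12.3%) were lower. Over all 33904 loci that did so, 20.6% were higher and 28.6% lower, and over those of 500 bases or more 20% were higher and 24.8% lower. The median log2 ratio of the members was 0.58, against −0.01 for all loci of 500 bases or more. Of the higher members 182 were listed at 0 in the control, while 66 of the lower ones had no cadmium value above 0. Among the 2209 members above 0 in both libraries, 693 were higher and 235 lower, with a median of 0.50, and the lean was thus present without the listed zeros. Over the 26842 such loci of 500 bases or more, 5163 were higher and 5164 lower, with a median of 0.06. Values above 0 but under 0.001 FPKM, which 31 members had in each library, were not left out here.

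Among the classes of 500 bases or more, the share of higher loci was 30.3% in unstranded intergenic loci, 19.3% in new splice forms, 18.0% in other overlaps and 13.5% in the reference structure class. The shares of lower loci in the same order were 20.2%, 14.4%, 22.0% and 49.9%. Stranded intergenic loci thus had the highest share of higher and the lowest share of lower loci among these 5 classes. No test of these differences was possible with 1 library per group.

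**Figure D2:**
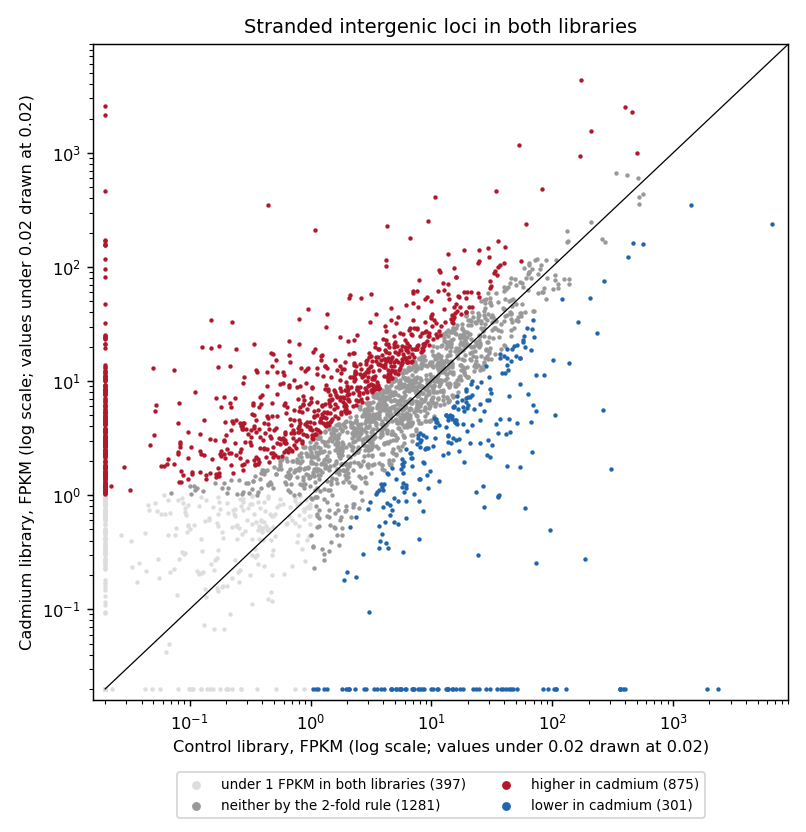
FPKM of the 2854 stranded intergenic loci in the control (x axis) and the cadmium library (y axis), both on log scales, with values under 0.02 drawn at 0.02. Each point is a locus, the line marks equal values, and colours give the 2-fold rule; 875 loci were higher in cadmium and 301 lower.

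By level, 231 of 514 members at a mean of 0.5 to under 2 FPKM (44.9%) were higher in cadmium and 4.86% lower, with a median log2 ratio of 0.88. The minimum of 1 FPKM bears on this range, since members with a mean under 1 pass it only through the library where they are high. Of the 231, 102 were listed at 0 in the control, and the 400 members of this range above 0 in both libraries had a median of 0.67. At 10 to under 30 FPKM, 28.7% were higher and 16.3% lower, with medians of 0.29 and, above 0 in both libraries, 0.30, and at 100 FPKM or more 19 of 53 were higher and 17 lower. Among unstranded intergenic loci the share higher also went down, from 36.5% at 0.5 to under 2 FPKM to 17.8% at 10 to under 30. Among reference loci of 500 bases or more it was 13.1% and 16.1%. By span, 42.2% of members from 500 to under 1000 bases were higher and 16.5% lower. The shares were 28.9% and 8.21% from 5000 to under 10000 bases, and 28.9% and 17.8% from 10000 bases on. Unstranded intergenic loci were higher in 34.9% from 500 to under 1000 bases and in 20% from 5000 to under 10000. For reference loci these shares were 13.1% and 18.1%. Members with 1 transcript by the numbering were lower in 16.1% and those with 4 or more in 8.20%, while 35.3% and 32.6% were higher. Among reference loci 49.0% with 1 transcript were lower and 10.3% with 4 or more, so this order was not particular to members. The strands differed little, with 37.0% higher on the plus and 34.3% on the minus strand.

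Fragment numbers could be read for 27 members in the exon file. They restate the FPKM of these members, so they add no separate support for the lean towards cadmium. FPKM of spliced members with 1 transcript of 500 bases or more came out as whole fragment numbers within 0.05 for 23 of 23 control and 26 of 27 cadmium values. For the 27 members whole in both libraries, control numbers ran from 0 to 198 (median 6) and cadmium numbers from 0 to 72 (median 16). The exact 95% binomial interval of the depth-corrected ratio lay above 1 for 13 of them, below 1 for 2, and held 1 for 12. All 27 lay on contigs without a reference locus, and 46.3% of members on such scaffolds were higher by the 2-fold rule. No such count of intervals is given for other loci of the exon file. The intervals cover counting error only: with 1 library per group they hold no spread between plants or libraries. PCR copies of 1 molecule cannot be recognised, so the counting error itself may be wider than they show.

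A wide difference was seen on contig C4773233 from 84 to 1563, at 0.836 FPKM (control) and 12.9 FPKM (cadmium). It had 6 control and 55 cadmium fragments, a ratio of 15.5 (interval 6.67 to 43.9). The locus on contig C4697787 from 15 to 700 stood at 8.28 and 18.0 FPKM, or 56 and 72 fragments, a ratio of 2.17 (interval 1.51 to 3.13). Contig C4749765 from 6 to 1034 had 0 control and 23 cadmium fragments (0 and 2.68 FPKM), and the interval of its ratio began at 9.64. The other direction was seen on contig C4744271, the 2-exon locus described above, at 29.0 and 16.6 FPKM. Its 198 control and 67 cadmium fragments gave a ratio of 0.571 (interval 0.426 to 0.757), which is less than the 2-fold rule asks.

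Where a pair of FPKM values is given for a locus, the control comes first. Of the 907 members that reached 1 FPKM in each library and 10 in 1 of them, 300 were higher in cadmium and 139 lower. No count over all loci under this filter is given. The highest ratio belonged to XLOC_074427 (scaffold22829, 44703 to 45230, minus strand), with 1.09 control and 211 cadmium FPKM, 194-fold higher. Its first exon filled its span of 528 bases, and it began 107 bases downstream of a locus of class o (45338 to 48520, same strand) that went from 6.78 to 2570 FPKM. It is one of the 39 members with no sign of splicing, so its strand, and with it this arrangement, has no source in the files. XLOC_116639 (scaffold451, 74649 to 75234, plus strand) had 4.26 control and 231 cadmium FPKM, 54.1-fold higher. Its nearest reference locus, 6173 bases away, was listed at 0 in both libraries.

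Another 3 members complete the 5 with the highest log2 ratio. This ranking uses the pseudocount of 1: by FPKM alone, contig C4793585 from 1 to 1200, at 4.23 and 115 FPKM, had a larger fold (27.2) than the last 2 given here. The locus on scaffold23290 from 61420 to 62061 had 10.6 control and 411 cadmium FPKM, 38.6-fold higher. Its first listed exon had only 30 bases. On scaffold21154, a locus of 18984 bases (49801 to 68784) with 9 transcripts by the numbering went from 173 to 4393 FPKM, 25.4-fold higher and the highest cadmium value of any member. The new splice form locus 2121 bases upstream on the same strand stood at only 0.646 and 3.90 FPKM, so the level of this intergenic locus was far above that of its neighbour in both libraries. On scaffold23139, a locus from 26546 to 28128 stood at 9.35 and 250.2 FPKM, and the new splice form locus 2053 bases away at 4.72 and 51.8.

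Lower members spanned as wide a range. XLOC_062059 (scaffold19541, 285235 to 285897, plus strand) had 304 control and 1.70 cadmium FPKM, 179-fold lower. XLOC_145119 (scaffold9641, 45937 to 51631, minus strand) stood at 263 and 5.63 FPKM, 46.8-fold lower, and lay 22619 bases from the nearest reference locus. The locus on scaffold23887 (19652 to 32301, a span of 2 loci), the most abundant member in the control at 6564 FPKM, had 239.7 cadmium FPKM, 27.4-fold lower. The new splice form locus 2002 bases downstream of this span stood at 689 and 501 FPKM, less than 2-fold apart. On scaffold35329, a locus from 5364 to 10067 stood at 67.7 and 2.37 FPKM. A locus on scaffold20465 from 42646 to 44387 stood at 53.7 and 1.75 FPKM, and its convergent neighbour 579 bases away was lower as well, at 12.8 and 3.82 FPKM.

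**Figure D3:**
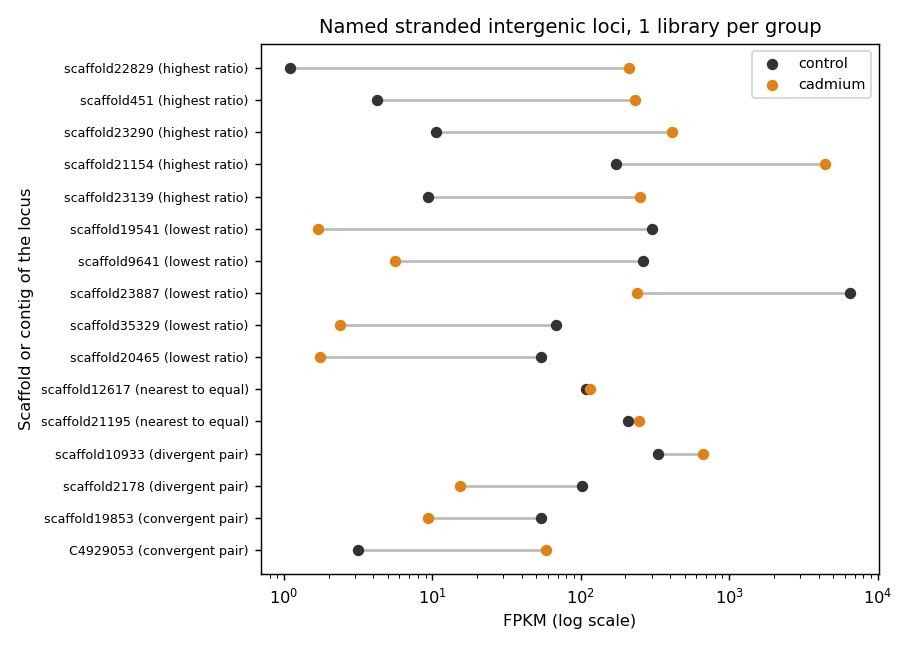
FPKM (log scale) of 16 named stranded intergenic loci in the control (dark) and the cadmium library (orange), 1 library per group, with the reason each was chosen in brackets. The 5 loci with the highest log2 ratio, ranked with a pseudocount of 1, run from 25.4-fold to 194-fold in FPKM, and the 2 loci nearest to equal stand at 108 and 115 and at 208 and 246 FPKM.

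Some of the highest values were present in 1 library and listed at 0 in the other, at loci with very short listed exons. The locus on scaffold8188 from 42577 to 43600 reached 2359 control FPKM with a first exon of 43 bases, and its cadmium value was 0. A locus on scaffold18026 from 47422 to 48516 reached 1895 control FPKM with a first exon of 35 bases, again with a cadmium value of 0. The other way round, scaffold9106 from 172130 to 172691 reached 2551 cadmium FPKM with a first exon of 68 bases, and its control value was 0. Contig C4775785 from 319 to 1203 reached 2149 cadmium FPKM, with a control value of 0. Its only transcript was 147 bases long, shorter than the 208 bases lost at transcript ends in the cadmium library. In all, 37 members of 10 FPKM or more in the control were listed at 0 in cadmium, and 34 the other way round, with no like count over all loci.

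Other abundant members were present in both libraries. Of the 24 at 100 FPKM or more in both, 6 were higher in cadmium, 5 lower and 13 neither, again with no like count over all loci. The locus on scaffold18500 from 11795 to 12863 went from 403 to 2538 FPKM, 6.29-fold higher, with no reference locus on its scaffold. Its first exon had 58 bases, as short as those of the loci listed at 0 in 1 library. On scaffold1794, a locus from 115287 to 117342 went from 453 to 2294 FPKM, 5.06-fold higher. It lay 77 bases downstream of a new splice form locus on the same strand at 2218 and 3553 FPKM. Contig C4728743 from 10 to 875, with a transcript of 381 bases, stood at 1416 and 348 FPKM, 4.07-fold lower. Near equal were scaffold12617 from 32926 to 33935 (108 and 115 FPKM) and scaffold21195 from 183319 to 185034 (208 and 246 FPKM). The longest members of 10 FPKM or more lay in shared spans. One on scaffold18130, in a span of 62286 bases that holds 6 loci, stood at 45.9 and 80.0 FPKM, and the most abundant reference locus of the same span at 75.5 and 33.3. One on scaffold17839 (30164 to 87609, a span of 2 loci) stood at 22.5 and 5.68 FPKM.

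Stranded intergenic loci lay at a wide range of distances from reference loci. No reference locus was found on the scaffold of 363 members (12.7%), and 258 (9.04%) shared their span with one. The other 2233 lay at a median distance of 2527 bases (quartiles 812 to 7192), from 4 to 65429 bases. Within 1000 bases were 643 (28.8%), within 200 bases 189, and over 10000 bases away 374. Unstranded intergenic loci of 500 bases or more shared their span with a reference locus more often (20.1%), and those apart lay at a median of 3743 bases, with 16.9% within 1000 bases. From a reference locus to the next one the median was 3397 bases. Counting only query loci at 1 FPKM or more in 1 library, it was 2510 bases for members and 1915 bases for reference loci. At short range this order did not hold. Of these expressed loci, 29.2% of members and 29.5% of reference loci lay within 1000 bases of the next reference locus. Within 200 bases lay 8.64% of expressed members and 3.70% of expressed reference loci. The nearest locus had the reference structure for 1497 members, a new splice form for 664 and another exon overlap for 72.

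Members were on the strand of their nearest reference locus about as often as not, and those within 1000 bases more often. Of 2185 members with a clear arrangement, 1147 (52.5%, exact 95% binomial interval 50.4 to 54.6) were on the strand of that locus, 551 (25.2%) were convergent, with 3′ ends facing, and 487 (22.3%) were divergent, with 5′ ends facing. Among members of 1000 bases or more the same-strand share was 50.5%, and with neighbours of class = or j only 51.9%. Same-strand members were split about evenly, 585 upstream of the neighbour and 562 downstream. Within 1000 bases the same-strand share was 58.3%, with 31.9% downstream and 26.4% upstream of the neighbour, and the divergent share was 15.2%. Farther than 10000 bases the same-strand share was 50.5% and the divergent share 24.7%. Among reference loci the same-strand share was 56.9% at all distances and 64.2% within 1000 bases, where 11.4% were divergent. Most of these reference loci were under 1 FPKM in both libraries, and among loci at 1 FPKM or more in 1 library the order turned round. Expressed members were on the neighbour's strand in 52.1% at all distances and 56.8% within 1000 bases, and expressed reference loci in 48.7% and 38.7%, with 48.9% convergent within 1000 bases. Divergent members also lay farther from the neighbour, at a median of 3436 bases, than members downstream of it on the same strand, at 1966.5 bases.

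**Figure D4:**
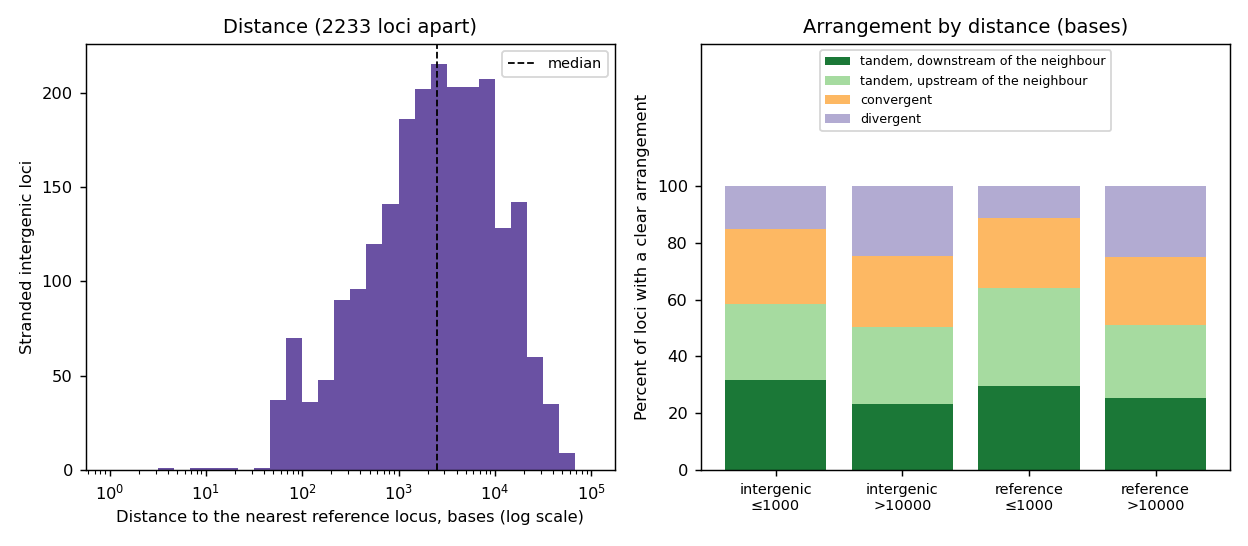
Left, number of stranded intergenic loci by distance to the nearest reference locus in bases (log scale), with the median of 2527 bases as a dashed line. Right, percent of loci in each arrangement for stranded intergenic loci and for reference loci, within 1000 and beyond 10000 bases of the nearest reference locus; the divergent share is 15.2% and 24.7% for intergenic loci.

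The share of members higher in cadmium was greater away from reference loci. It was 28.9% for members sharing a span with a reference locus (58 of 201) and 29.8% within 1000 bases. From 5000 to under 10000 bases it was 38.2%, and from 20000 bases on 39.2%. On scaffolds without a reference locus it was 46.3% (144 of 311), with 10.6% lower and a median log2 ratio of 0.90. Those scaffolds were short by the positions in the files: their last locus ended at a median of 5491 bases, against 84450 for the rest, and 50.7% of the members on them were on contigs, against 10.4%. Control medians also differed, at 1.56 FPKM without and 2.97 FPKM with a reference locus, against 3.92 and 4.53 in cadmium. Scaffold length and level thus moved with this difference, and their part in it was not tested. Unstranded intergenic loci showed a similar range, from 17.6% in shared spans to 46.8% from 20000 bases on, and reference loci a narrower one, from 15.5% within 1000 bases to 23.3% on scaffolds with no other. Arrangement went with smaller differences: 33.1% of convergent, 32.1% of divergent, 36.8% of downstream and 35.5% of upstream members were higher.

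**Figure D5:**
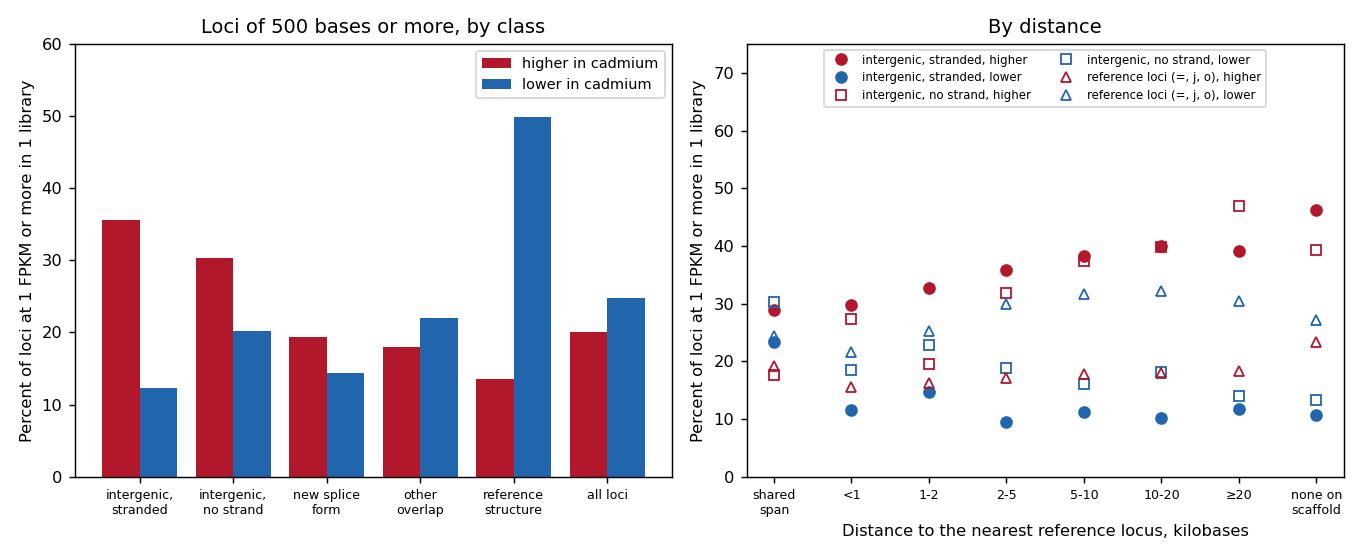
Left, percent of loci of 500 bases or more that were higher (red) or lower (blue) in cadmium, by class, among loci at 1 FPKM or more in 1 library. Right, the same percents by distance to the nearest reference locus for stranded intergenic loci (filled circles), unstranded intergenic loci (squares) and reference loci (triangles); the filled red circles go from 28.9% in shared spans to 46.3% on scaffolds with no reference locus.

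Over all distances, members were higher in cadmium in a larger share of pairs where the nearest reference locus was higher too, which did not hold in shared spans or far away. Both reached 1 FPKM in 1114 pairs. Members were higher in cadmium in 82 of the 181 pairs whose reference locus was higher (45.3%). The share was 30.1% of 637 pairs where the reference locus was neither, and 27.7% of 296 where it was lower. Lower members made up 11.0%, 11.5% and 21.3% in the same order. In shared spans the shares of higher members were 22.7% of 22, 33.0% of 88 and 19.6% of 46 pairs, and beyond 10000 bases 33.3% of 15, 38.2% of 34 and 10 of 20. Reference loci set against their own nearest reference locus gave shares of higher loci of 21.6%, 16.1% and 14.3%. Unstranded intergenic loci gave 45.9%, 19.5% and 16.5%. Where both partners were called, 145 of 247 pairs (58.7%) went the same way, 82 of them higher and 63 lower. In another 82 the member was higher and the reference locus lower, and in 20 the reverse. Such a share depends on how many loci of each kind lean one way, so its size is not directly comparable between classes.

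Same-way counts varied with distance and arrangement, on few called pairs. Within 1000 bases 57 of 90 called pairs went the same way, and beyond 10000 bases 7 of 18. Members downstream of a same-strand neighbour within 2000 bases went the same way in 30 of 40 called pairs, upstream ones in 23 of 35, convergent ones in 19 of 33 and divergent ones in 8 of 18. Reference loci with their own nearest reference locus had the same order of arrangements within 2000 bases, at 66.1%, 63.8%, 57.1% and 55.7%. That order was thus not particular to members. For reference loci the same-way share was 64.3% within 1000 bases and 60.4% beyond 10000. The member stood above its neighbour in mean FPKM in 429 of the 1114 pairs (38.5%). These are counts over loci in 1 library per group, and no difference between arrangements was tested.

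The convergent and divergent pairs given here, 2 of each within 2000 bases, were taken for the highest mean FPKM of their weaker partner, not for their difference. On scaffold19853, a member from 55755 to 57017 stood at 53.8 and 9.35 FPKM, and the convergent new splice form locus 1998 bases away at 99.4 and 8.16. On contig C4929053, a member from 22650 to 24033 went from 3.14 to 58.2 FPKM, 18.5-fold higher, and its convergent neighbour 369 bases away from 29.2 to 77.2. Among divergent pairs, the member on scaffold2178 from 36607 to 53008 stood at 102 and 15.3 FPKM, and the reference-structure locus 938 bases away at 219.7 and 0. The member on scaffold10933 from 12221 to 14267 stood at 334 and 667 FPKM, just under the 2-fold rule, while its divergent neighbour 1888 bases away stood at 77.0 and 44.8. By the 2-fold rule neither partner of this last pair was called. The member's log2 ratio of 0.997 lay just under the threshold, and under the 3 scalings that raise cadmium it was 1.08 to 1.15, which calls it higher.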

How the data were processed

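The authors deposited FPKM values for 147111 loci in 1 control and 1 cadmium library, with a transcript table (class, strand, 1 exon per locus) and an exon file cut off in its last line. The tools named are TopHat2 2.0.13, Cufflinks 2.2.1 and Cuffnorm 2.2.1, per the submitters' processing notes. The sources used here name no genome build, settings or strand marking. The tables were joined by locus identifier. The log2 ratio used a pseudocount of 1 FPKM. A locus was called at 2-fold or more with at least 1 FPKM in 1 library. Distances are bases between spans on a scaffold. Where several reference loci tied, the one with the highest mean FPKM was used, and arrangement was left unclear if strands or sides differed. Positions are 1-based, on scaffolds and contigs as the files name them. Members, lists and the rule for named loci were chosen with earlier results of these data known. Named are the extremes of the ratio among members with 1 FPKM in each library and 10 in 1 of them, the highest FPKM of each library, those listed at 0 in 1 library, the nearest to equal, the longest, the strongest convergent and divergent pairs, and members with exon positions. The locus on contig C4793585 (4.23 and 115 FPKM, 1 to 1200) is the last of these. The fragment examples, contig C4751851 and the pairs of members in 1 span were chosen after their values were seen.

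Fragments behind 1 FPKM were fitted on unspliced reference-structure loci, whose FPKM are whole multiples of a step set by length and library, with 204 bases lost at the ends in the control and 208 in cadmium. The size rule, the distances and the depth fit were tested on simulated data. Of 2854 simulated members, with counting error only, 100 raised 4-fold were called in 100% and 100 lowered 4-fold in 99%. A 4-fold change lies well beyond the 2-fold rule, so high recovery was built in. It does not show how often smaller changes or weakly expressed members would be called. Transcript lengths of most members were not measured, so the simulated fragment numbers rest on assumed lengths. Distances and arrangements of 300 simulated loci matched a direct reading in all cases. Calculations ran in Python 3.11.15 (scipy 1.17.1, pandas 2.3.3, numpy 2.4.6), and plots were drawn with matplotlib 3.10.9.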

Additional observations from a re-analysis of the deposited data

How the results depend on the processing

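No paired analysis was possible because there was 1 library on each side, and none could be left out. In every setting tried more members were higher than lower in cadmium and the median log2 ratio stayed positive. Against 875 higher, 301 lower and a median of 0.58, a pseudocount of 5 gave 371, 180 and 0.29, and a pseudocount of 0.1 a median of 0.69. A 4-fold rule gave 298 and 128, and a minimum of 5 FPKM 545 higher. The median was 0.46 without a filter and 0.71 both with equal upper quartiles and with equal sums without the 20 highest loci. Of the 2 scalings chosen after seeing the data, which shift cadmium down, equal upper quartiles of loci above 0 gave 0.42. All 5 scalings shifted cadmium by −0.19 to 0.16 on the log2 scale. With neighbours of at least 1 FPKM only, the median distance was 3100 bases and the divergent share 19.8%. Within 2000 bases the same-strand share was 55.7% and the divergent share 17.0%. Called pairs beyond 10000 bases went the same way in 38.9%. The other 57 values stayed within their limits (1.5 times for counts, 0.1 for the median, the binomial interval for shares). They include the members with a span of their own, those on scaffolds with a reference locus and those whose first exon was shorter than the span, all chosen after seeing the data. For the 26 named loci 29 log2 ratios moved by over 0.2, each time with a different pseudocount, and no locus called higher or lower changed direction. Scaffold12617, near equal at 0.09, went to −0.094 with equal upper quartiles of loci above 0, and scaffold10933 was called higher (1.08 to 1.15) under the 3 scalings that raise cadmium. The cause of these moves was not tested. Depth limits the weak members: at 1 FPKM a transcript of 1 kilobase rests on fewer than 20 fragments. For members outside the exon file the transcript length, and so the fragment number, was not measured.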

Other observations

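Some intergenic spans held 1 stranded locus on each strand and nothing else. There were 78 such spans, and in 58 both loci reached 1 FPKM in 1 library. Both were called in 15 of them: 8 pairs were higher in cadmium, 2 were lower, and 5 went opposite ways. These counts depend on the lean of members towards cadmium, and no like count over other loci is given. On scaffold20031 from 3963 to 13694, the plus locus had 44.3 control and 7.41 cadmium FPKM, and the minus locus at 30.6 and 2.16. On scaffold16764 from 6714 to 16140, the plus locus stood at 5.63 and 18.8 FPKM and the minus locus at 1.47 and 6.81. On scaffold35095 from 10404 to 11848 the strands went opposite ways: the plus locus stood at 564 and 158 FPKM, and the minus locus at 6.01e-05 and 171. Values this far below 0.001 FPKM are outputs of the estimation rather than counts of fragments, and the assignment of reads to strands in these spans was not tested. Values of 0 or under 0.001 FPKM also entered the opposite pairs on scaffold849, scaffold2583 and scaffold9436. They entered same-way pairs too, on scaffold31702, scaffold19618 and scaffold9430.

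Neighbouring members on the same strand, up to 1000 bases apart, formed 72 groups with 150 members, at most 4 in a group. In 12 groups at least 2 members were called, and in 9 of these all called members went the same way. The lean of members towards cadmium by itself raises such a count, and no like count over other loci is given. Whether such groups are pieces of 1 gene was not tested.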
